A study of Homo sapiens with 15 samples.

Results

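A set of 8 oncogenes that are recurrently gained in high-grade serous ovarian cancer was followed through a genome-wide map of cisplatin damage, namely MYC, CCNE1, MECOM, PIK3CA, ERBB2, AKT2, EGFR and TERT. These 8 of 20090 protein-coding genes were listed by what is known of the tumour type with earlier results of these data known, and the rule that picks their windows uses no measured value. For each gene, the 1 kb windows whose midpoint lay in the gene body were summed, as were those of the gene with 250 kb added on each side, all on the hg19 (GRCh37) assembly. The study mapped platinum adducts by Pt-exo-seq, in which exonucleases digest sheared DNA from its ends until a platinum adduct stops them, and the protected end is then ligated and sequenced. PEO1 and PEO4 are established ovarian cancer lines derived from a single patient, PEO1 labelled as platinum sensitive and PEO4 as platinum resistant. There were 5 groups of 3 libraries each: PEO1 untreated (UT), PEO1 at 16 µM cisplatin, PEO4 untreated, PEO4 at 16 µM and PEO4 at 32 µM. The doses of 16 µM in PEO1 and 32 µM in PEO4 had been chosen by the study to load similar amounts of platinum. Each line is 1 culture lineage, the labels do not say whether the 3 libraries of a group came from separate cultures, and p-values therefore measure the spread between these libraries, which may be technical. Genomic DNA carries no expression markers, so the identity of the lines could not be checked that way.

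The 8 genes act at different points of growth control. EGFR and ERBB2 are receptor tyrosine kinases at the cell surface, PIK3CA encodes the catalytic subunit of the lipid kinase that they activate, and AKT2 is a kinase downstream of it. MYC is a transcription factor that drives growth, CCNE1 encodes cyclin E1, which starts DNA replication with CDK2, MECOM encodes a zinc-finger transcription factor, and TERT is the catalytic subunit of telomerase. Serous ovarian tumours are known for widespread gains and losses of DNA, and a gain offers more template to every assay that counts DNA fragments. A read count in this assay can therefore follow the amount of DNA that the cells hold, the density of adducts, or both, and in the untreated libraries no adduct is formed by the drug.

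Cisplatin crosslinks neighbouring guanines, so GG on either strand (GG or CC when only 1 strand is read) is the letter pair of interest. The 250 bases before the outermost annotated start of CCNE1 and of MECOM are shown as 2 genes that differ in that measure, though not the 2 furthest apart. Both windows were read from GRCh37 on the strand of the gene, CCNE1 at chr19:30302648-30302897 (+) and MECOM at chr3:169381564-169381813 (-), 5′ to 3′, with GG and CC in capitals.
CCNE1: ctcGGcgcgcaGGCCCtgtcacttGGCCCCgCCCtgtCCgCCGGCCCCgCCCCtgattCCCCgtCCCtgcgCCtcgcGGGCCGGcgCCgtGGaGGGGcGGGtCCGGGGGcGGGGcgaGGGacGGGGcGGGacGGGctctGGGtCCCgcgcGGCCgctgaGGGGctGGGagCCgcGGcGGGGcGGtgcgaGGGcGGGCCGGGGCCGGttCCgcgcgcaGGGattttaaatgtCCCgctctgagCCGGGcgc
MECOM: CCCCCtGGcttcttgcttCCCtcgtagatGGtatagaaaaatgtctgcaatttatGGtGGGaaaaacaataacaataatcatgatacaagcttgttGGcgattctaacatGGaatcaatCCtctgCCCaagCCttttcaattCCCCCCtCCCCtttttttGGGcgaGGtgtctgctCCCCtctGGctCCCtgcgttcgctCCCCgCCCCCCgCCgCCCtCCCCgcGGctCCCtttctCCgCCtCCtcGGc
The CCNE1 window held 88 GG or CC steps at a GC content of 81.2%, and the MECOM window held 55 at 54.8%. Over the 20086 protein-coding genes with a complete window, the median was 50 steps, with quartiles of 36 and 65, at a median GC content of 59.6%. The window of MYC was not read. Of the other members read, PIK3CA had the fewest steps, 26, and TERT the most, 95.

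The libraries held 27705392 to 56643611 reads, or 9.17 to 18.77 reads per covered autosomal window. The level of a gene is given below as its reads per covered window divided by the autosomal mean of the same library, so that 1 is the average autosomal window and genes of unequal length can be compared. Libraries differed in how their reads followed base composition, and PEO4 UT held relatively more reads in GC-rich DNA than PEO1 UT. A GC-matched level is therefore given beside it, in which the divisor is the mean over autosomal bins of 100 kb with the same GC content. Along each chromosome the GC-matched level of the untreated libraries was divided into stretches of even level, some shorter than 1 Mb, and the stretch between successive steps that holds a gene was read off for each line.

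The members are taken as the transcription factors with the genes on their arms, then the cyclin and the AKT kinase, the receptors, and telomerase. The widest difference between the lines was on the long arm of chromosome 3, where MECOM and PIK3CA were both lower in PEO4. MECOM lies at chr3:168801287-169381563 (-) and spans 580.3 kb. Its level with 250 kb on each side was 2.34, 2.23 and 2.15 in the 3 PEO1 UT libraries and 0.976, 0.974 and 0.971 in the 3 PEO4 UT libraries. The treated libraries lay with their line, at 2.08, 2.26 and 2.35 in PEO1 at 16 µM and between 0.972 and 1.09 in the 6 treated PEO4 libraries. All 9 PEO4 libraries were thus below all 6 PEO1 libraries. The untreated libraries differed as the treated ones did, and the amount of DNA and the behaviour of that DNA in the assay cannot be told apart from read counts alone. The fitted difference between the untreated lines was -1.27 on the log2 scale (SE 0.107, adjusted p = 2.18e-07, edgeR quasi-likelihood test), and between the lines at 16 µM it was -1.07 (SE 0.106, adjusted p = 1.23e-06). Summed over the gene body alone, MECOM differed by -1.28 (SE 0.102, adjusted p = 3.64e-09 by edgeR). The lower reads ran along the whole gene, since 607 of the 643 body windows with a mean of at least 5 reads (94.4%) were lower in PEO4 UT.

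PIK3CA, at chr3:178865902-178957881 (+), lies 9.5 Mb beyond MECOM and has a partial near-identical copy elsewhere in the genome, so reads from its shared exons are uncertain. Its level was 1.82, 1.62 and 1.72 in PEO1 UT and 0.978, 1.02 and 1.00 in PEO4 UT. Treated PEO1 libraries were at 1.62, 1.73 and 1.73 and the 6 treated PEO4 libraries at 0.961 to 1.08, so the lines did not overlap here either. The difference between the untreated lines was -0.85 (SE 0.096, adjusted p = 4.58e-06 by edgeR) and that at 16 µM was -0.73 (SE 0.096, adjusted p = 2.12e-05 by edgeR). Of its 98 body windows with at least 5 reads on average, 79 (80.6%) were lower in PEO4 UT.

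Along chromosome 3 of PEO1 UT, the GC-matched level stepped from 1.07 to 1.62 at 140.1 Mb, to 1.81 at 155.3 Mb and to 2.29 at 165.4 Mb, and back to 1.78 at 171.1 Mb, from where it ran to the end of the chromosome. MECOM lay in the stretch of 5.7 Mb at 2.29 ± 0.027 (SD, n = 3) and PIK3CA in the last stretch at 1.78 ± 0.010 (SD, n = 3). In PEO4 UT, MECOM lay at 1.07 ± 0.005 and PIK3CA at 1.08 ± 0.005 (SD, n = 3 each). PEO4 UT had 1 stretch above 1.08 on this arm past 125.9 Mb, between the 2 genes, from 169.7 to 172.8 Mb, at 1.63 ± 0.017 (SD, n = 3). It began 318 kb upstream of MECOM, which lies on the minus strand, and overlapped the PEO1 stretch at 2.29 without including the gene. The 6 treated PEO4 libraries and the 3 treated PEO1 libraries, which were not used to place the steps, had means of 1.63 and 1.62 in the PEO4 stretch at 16 µM and 32 µM, and 2.27 in the PEO1 stretch at 16 µM.

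Of 8 listed neighbours on 3q26, the 7 that code for proteins were tested and all 7 were lower in PEO4 UT with an adjusted p under 0.05 (edgeR), as were 14.2% of all genes, with a median log2 difference of -0.79. The transcription factor gene MYNN, in the same pair of stretches as MECOM, differed by -1.15 (SE 0.068). PRKCI, an atypical protein kinase C, and SKIL, a repressor of TGF-beta signalling, fall inside the PEO4 stretch and differed by -0.56 and -0.54 (SE 0.062 each). ECT2, which acts in cell division, lies in the PEO4 stretch but past the PEO1 one, and differed by -0.29 (SE 0.097). SOX2, GNB4 and TBL1XR1, in the same pair of stretches as PIK3CA, differed by -0.83, -0.79 and -0.81. The size of the difference went with the pair of stretches in which a gene lay. The stretches were placed from the same untreated reads, so this match was largely built in and is a description only. At 16 µM all but ECT2 (-0.19, adjusted p = 0.258 by edgeR) were lower again, as were 10.1% of all genes. The median log2 difference over the 7 was then -0.65.

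**Figure D1:**
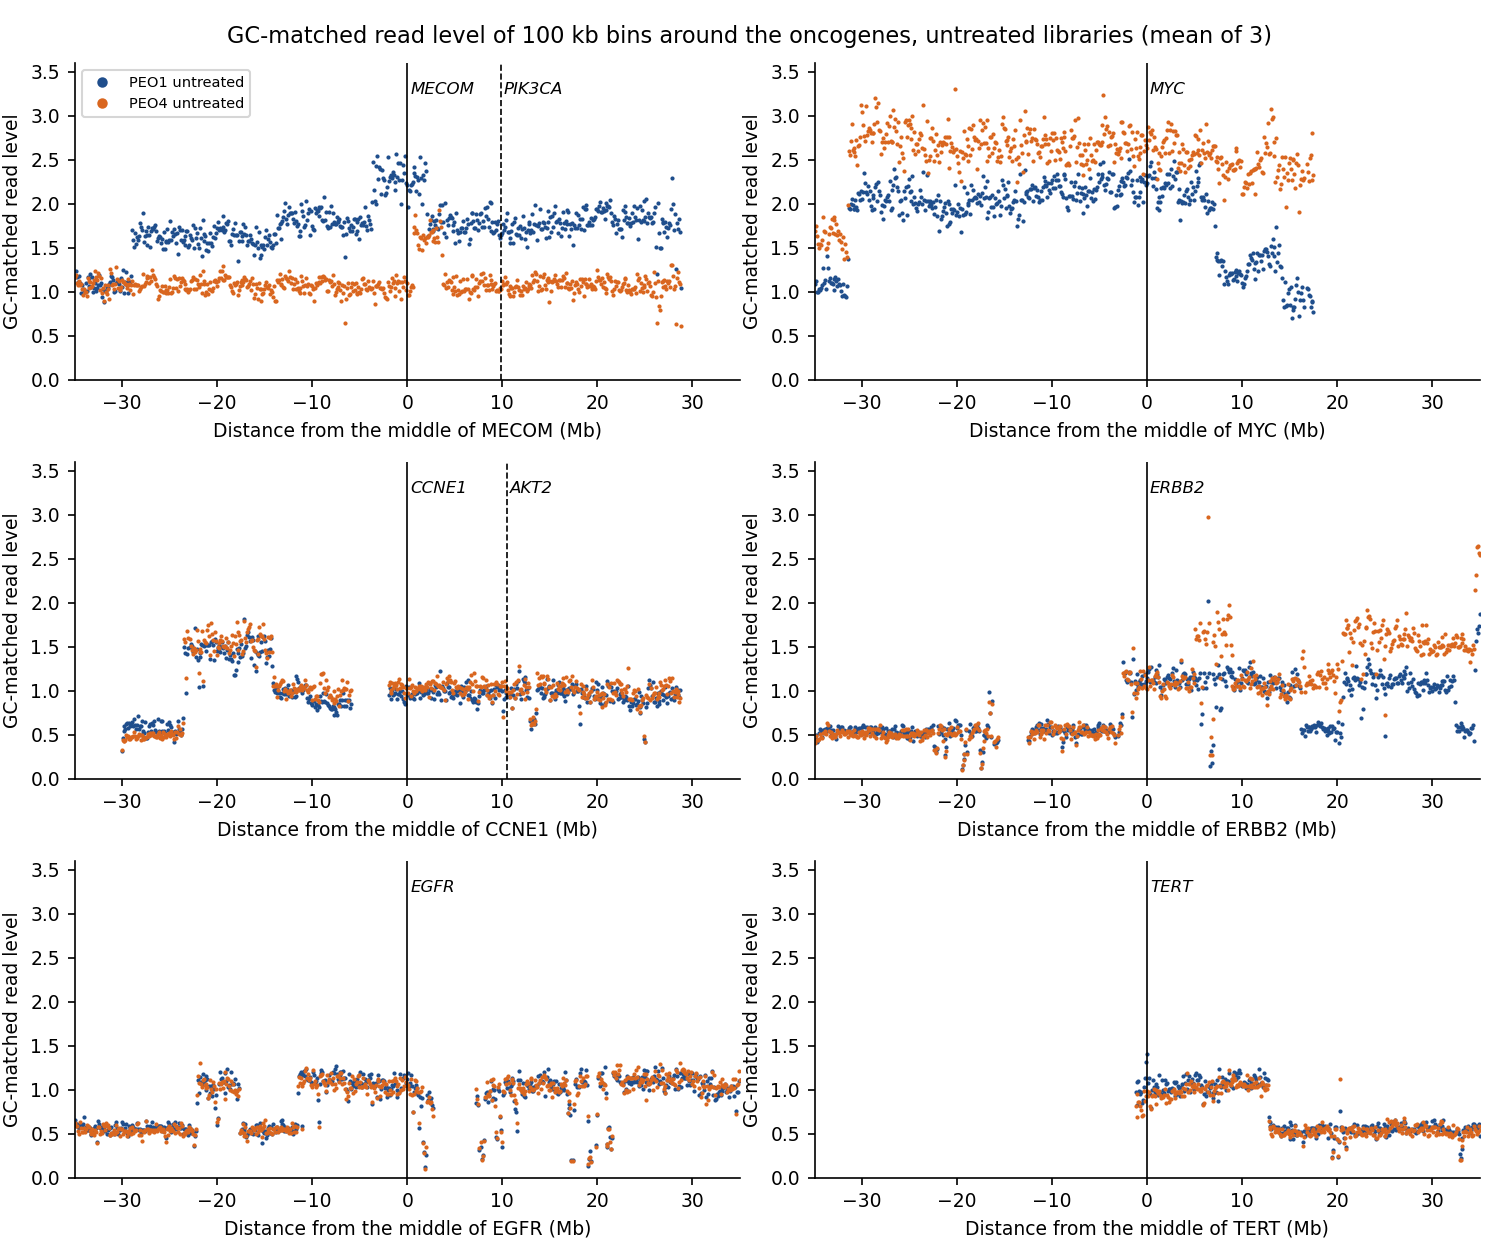
GC-matched read level of 100 kb bins (vertical axis, 1 is the mean of autosomal bins of the same GC content) against the distance in Mb from the middle of a gene, as the mean of the 3 untreated libraries of PEO1 (blue) and of PEO4 (orange). PEO1 stands at 2.29 across MECOM where PEO4 stands at 1.07, both lines are raised across MYC, and the stretches holding CCNE1, AKT2, ERBB2, EGFR and TERT stand at 0.98 to 1.13 in both lines.

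MYC was the member with the highest level in PEO4, and it was raised in both lines. The gene (chr8:128747680-128755197, +) is 7.5 kb long, and the level with its surroundings was 2.26, 2.41 and 2.38 in PEO1 UT against 2.91, 2.95 and 3.03 in PEO4 UT. Treated libraries were at 2.496, 2.252 and 2.201 in PEO1, at 2.77, 3.08 and 2.96 in PEO4 at 16 µM, and at 2.87, 2.55 and 2.64 in PEO4 at 32 µM. Every PEO4 library was above every PEO1 library, by a narrow margin, the lowest PEO4 value being 2.55 and the highest PEO1 value 2.496. Among 26565 autosomal bins, 99.8% were lower than the MYC level in PEO1 UT and 99.4% were lower in PEO4 UT. The untreated difference was 0.27 (SE 0.042, adjusted p = 8.96e-05 by edgeR), and at 16 µM it was 0.37 (SE 0.042, adjusted p = 4.63e-06 by edgeR).

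The 8 windows of the MYC body alone held 144 to 327 reads per library after scaling to the median library (33071651 reads on chromosomes 1 to 22 and X), and there the untreated difference of 0.46 (SE 0.181) did not pass (adjusted p = 0.0736 by edgeR). Without PEO1 UT library 1 it was 0.59 (adjusted p = 0.0404 by edgeR), and with scaling to the total count 0.54 (adjusted p = 0.0401 by edgeR). With a GC offset it was 0.18 (adjusted p = 0.59 by edgeR), and the GC-matched level of the body was 2.08 ± 0.592 in PEO1 UT and 2.24 ± 0.082 in PEO4 UT (SD, n = 3 each), with overlap. Both lines stepped up at the same position, 97.3 Mb of chromosome 8, from 1.06 to 2.02 in PEO1 UT and from 1.57 to 2.62 in PEO4 UT. MYC lay in a stretch at 2.19 ± 0.013 in PEO1 UT and at 2.66 ± 0.008 in PEO4 UT (SD, n = 3 each). The lines thus differed before and across the gene, and past it they were further apart, with PEO1 UT at 1.20 from 135.9 Mb and PEO4 UT at 2.39 from 136.2 Mb. Without GC matching, the whole long arm stood at 1.45 ± 0.021 in PEO1 UT and 1.94 ± 0.021 in PEO4 UT, and the short arm at 0.990 ± 0.005 and 0.954 ± 0.005 (SD, n = 3 each).

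On 8q24, the Arf-regulating gene ASAP1 was the only tested neighbour of 4 that was higher in PEO4 UT (0.21, SE 0.057, adjusted p = 0.0109 by edgeR), and all 4 were higher at 16 µM, with a median of 0.32. Of all genes, 20.1% and 14.6% were higher in these comparisons, and genes this close share windows. The neighbouring non-coding gene PVT1 was not tested, since the fits covered protein-coding genes, and its stretch is that of MYC.

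CCNE1 (chr19:30302898-30315219, +) and AKT2 (chr19:40736224-40791443, -), 10.4 Mb apart on the long arm of chromosome 19, were near the autosomal average in both lines. CCNE1 levels were 0.886, 1.08 and 1.01 in PEO1 UT and 1.25, 1.11 and 1.20 in PEO4 UT, with 0.987 to 1.11 in treated PEO1 and 0.945 to 1.21 in treated PEO4. AKT2 levels were 0.903, 1.02 and 0.966 in PEO1 UT and 1.29, 1.19 and 1.29 in PEO4 UT, with 0.970 to 1.22 and 0.943 to 1.28 in the treated libraries of the 2 lines. For both genes the untreated groups were separate and the lines overlapped once the treated libraries were counted. The share of all genes with separate untreated groups was not counted, here or for EGFR and TERT below.

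The untreated difference passed for CCNE1 at 0.20 (SE 0.062, adjusted p = 0.0234 by edgeR) and for AKT2 at 0.32 (SE 0.070, adjusted p = 0.00231 by edgeR). Neither passed at 16 µM, where CCNE1 differed by 0.12 (adjusted p = 0.235 by edgeR) and AKT2 by 0.16 (adjusted p = 0.158 by edgeR), nor over the gene bodies. The AKT2 body, at 0.31 in the untreated lines, passed when only the 6 libraries compared were fitted (adjusted p = 0.0291) and turned to -0.03 with a GC offset (adjusted p = 0.92), both by edgeR. With a GC offset per library both passed at 16 µM, at 0.11 for CCNE1 (adjusted p = 0.00971) and 0.15 for AKT2 (adjusted p = 0.000179), and AKT2 also passed without library 1 of PEO1 at 16 µM (0.22, adjusted p = 0.0323) or of PEO4 at 16 µM (0.24, adjusted p = 0.00684), all by edgeR. The CCNE1 call between the untreated lines was lost without PEO1 UT library 1 (0.15, adjusted p = 0.122) or 3 (0.20, adjusted p = 0.056), without PEO4 UT library 1 (0.17, adjusted p = 0.104) or 3 (0.21, adjusted p = 0.0565), and with scaling to the total count (0.27, adjusted p = 0.068), all by edgeR. The GC content of these regions was 46.9% and 47.9%, and the GC-matched levels were closer together, at 0.982 ± 0.032 and 1.05 ± 0.035 for CCNE1 and 0.942 ± 0.031 and 1.06 ± 0.012 for AKT2 in PEO1 UT and PEO4 UT (SD, n = 3 each). Both genes shared 1 stretch in each line, at 0.98 ± 0.010 in PEO1 UT and 1.03 ± 0.010 in PEO4 UT, which ended in both lines at 43.2 Mb. That end was the start of a short dip to 0.65 in PEO1 UT and 0.64 in PEO4 UT. The levels returned to 0.96 and 1.01 at 43.9 Mb. A raised stretch from 6.8 to 16.1 Mb, at 1.47 in PEO1 UT and 1.54 in PEO4 UT, lay on the other arm of the chromosome and held neither gene. All 5 neighbours on 19q12 and 3 of 4 on 19q13 were higher in PEO4 UT, as were 20.1% of all genes, with medians of 0.30 and 0.23, and 1 of these 9, UQCRFS1, a subunit of respiratory complex III, was also higher at 16 µM (0.24, SE 0.071), as were 14.6% of all genes. Genes this close share windows. Both whole arms also held more reads in PEO4 UT than in PEO1 UT after scaling to the median library. The means were 439200 against 355600 on the long arm and 372700 against 289000 on the short arm.

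Neither receptor gene passed between the lines in the edgeR fit of all 15 libraries. ERBB2 (chr17:37844167-37886679, +) was at 1.03, 1.26 and 1.24 in PEO1 UT and 1.31, 1.25 and 1.37 in PEO4 UT, and the groups overlapped. Its difference was 0.09 (95% interval -0.06 to 0.23, adjusted p = 0.278 by edgeR) and turned to -0.04 with a GC offset (adjusted p = 0.346 by edgeR), and its GC-matched levels were 1.15 ± 0.033 and 1.11 ± 0.013 (SD, n = 3 each). ERBB2 stood 2.5 Mb inside a step that both lines made at 35.3 Mb of chromosome 17, from 0.55 to 1.13 in PEO1 UT and from 0.54 to 1.10 in PEO4 UT. Without GC matching, the long arm as a whole was at 1.03 ± 0.060 in PEO1 UT and 1.55 ± 0.059 in PEO4 UT (SD, n = 3 each). By the GC-matched level, the first of its stretches that stood higher in PEO4 began at 42.9 Mb, at 1.62, 5.0 Mb past ERBB2. None of its 6 neighbours on 17q12 passed, their median being 0.09, where 20.1% of all genes were higher and 14.2% lower. Their regions share windows with that of ERBB2, so these are not 6 separate measurements.

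EGFR (chr7:55086710-55279321, +) was the member with the least spread in PEO1 UT, with 1.13, 1.16 and 1.15 in PEO1 UT and 1.099, 1.07 and 1.098 in PEO4 UT. The untreated groups were separate, at a difference of -0.14 (95% interval -0.26 to -0.02) that did not pass (adjusted p = 0.0759 by edgeR). With 500 kb on each side it was again -0.14 and passed (adjusted p = 0.0378 by edgeR), as it did when only the 6 libraries compared were fitted (-0.13, adjusted p = 0.0193), with a GC offset (-0.08, adjusted p = 0.0437) and by DESeq2 (-0.14, adjusted p = 0.0396). Both lines stepped up at 43.6 Mb of chromosome 7, from 0.55 to 1.10 ± 0.009 in PEO1 UT and from 0.54 to 1.06 ± 0.006 in PEO4 UT (SD, n = 3 each). Without GC matching, EGFR with its surroundings averaged 1.145 in PEO1 UT and 1.09 in PEO4 UT. On that measure the short arm as a whole was lower, at 0.713 ± 0.002 in PEO1 UT and 0.689 ± 0.001 in PEO4 UT (SD, n = 3 each). None of the 4 neighbours on 7p11 passed, with a median of -0.15, where 20.1% of all genes were higher and 14.2% lower. Regions of neighbouring genes can overlap here too.

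TERT (chr5:1253262-1295183, -) lies 1.3 Mb from the end of chromosome 5 in the most GC-rich surroundings of the 8, at 56.3%, and its untreated libraries had the largest SDs of the 8 in each line, 0.146 and 0.087. Its level was 0.802, 1.05 and 1.06 in PEO1 UT, 1.43, 0.949 and 1.03 in PEO1 at 16 µM, 1.29, 1.12 and 1.24 in PEO4 UT, 0.765, 1.17 and 1.09 in PEO4 at 16 µM, and 1.27, 0.908 and 1.01 in PEO4 at 32 µM. The untreated groups were separate, the treated ones were not, and the untreated difference of 0.27 did not pass (95% interval -0.03 to 0.56, adjusted p = 0.135 by edgeR), although it did when only the 6 libraries compared were fitted (adjusted p = 0.0183 by edgeR). The direction depended on how base composition was handled. With a GC offset per library the difference was -0.14 and passed (adjusted p = 0.000998 by edgeR). The GC-matched level was 1.15 ± 0.007 in PEO1 UT and 0.892 ± 0.021 in PEO4 UT (SD, n = 3 each), although only 183 autosomal bins shared that GC content, and against the median of those bins it was 1.19 ± 0.033 and 0.979 ± 0.029. Over the whole stretch from the chromosome end to 14 Mb, the lines were at 1.05 ± 0.007 and 1.01 ± 0.005, and beyond that shared step they stood at 0.55 and 0.53. Which of these values reflects the DNA around TERT was not tested.

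**Figure D2:**
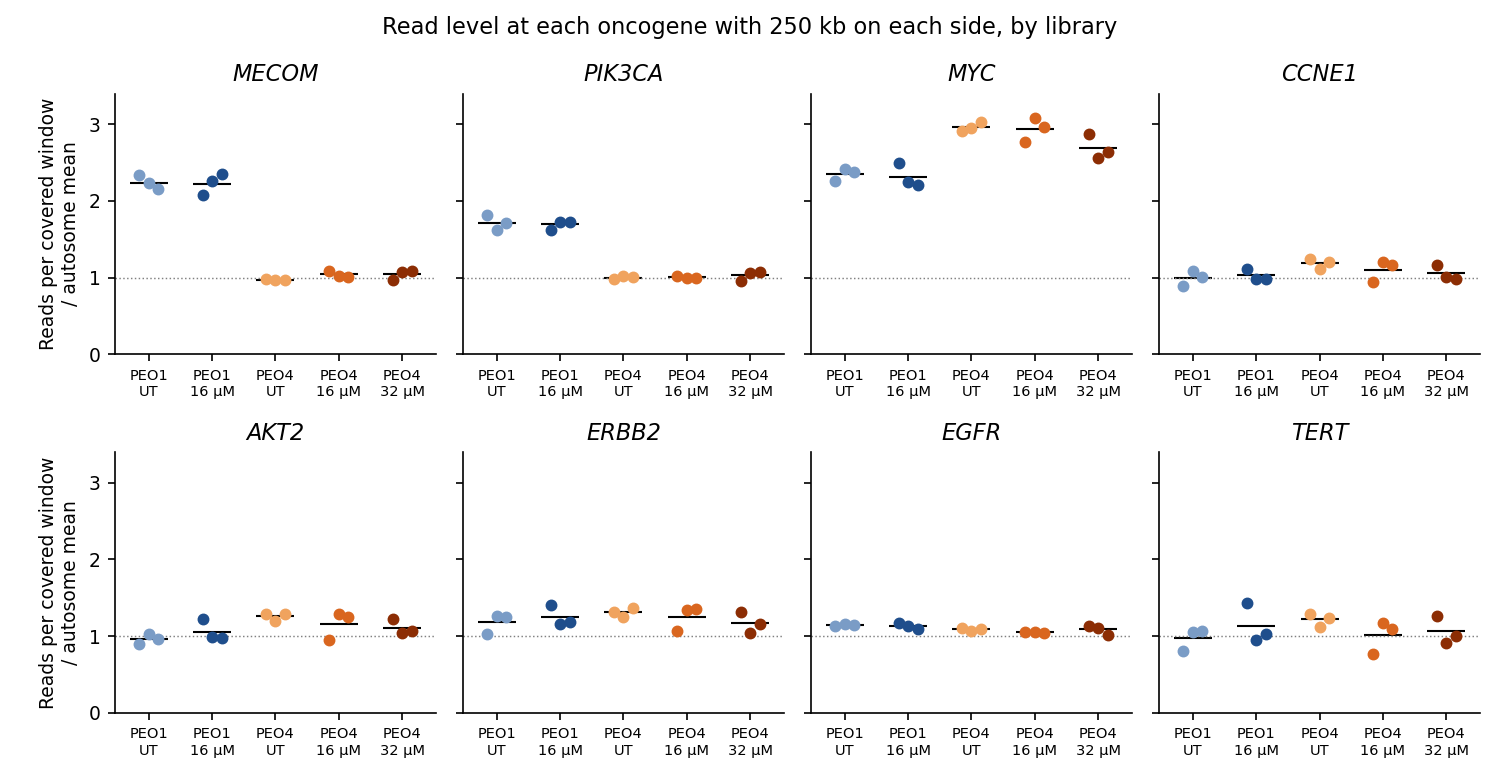
Reads per covered window divided by the autosomal mean (vertical axis) for each gene with 250 kb on each side, in the 3 libraries of each of the 5 groups (points) with their mean (line). The PEO4 libraries of MECOM lie at 0.971 to 1.09, below the PEO1 libraries at 2.08 to 2.35, whereas those of TERT spread over 0.765 to 1.29 within PEO4.

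Across the 8 members, 3 were higher in PEO4 UT (MYC, CCNE1, AKT2) and 2 lower (MECOM, PIK3CA) with 250 kb on each side. Of all 20055 genes tested that way, 20.1% were higher and 14.2% lower, and with 8 members no reading against that background was made. At 16 µM, 1 was higher (MYC) and 2 were lower, where 14.6% of genes were higher and 10.1% lower. Over gene bodies, 2 members were lower and 0 higher in both comparisons, against 9.09% lower and 13.5% higher in the untreated lines and 7.7% lower and 10.4% higher at 16 µM, of 17236 genes. In the untreated comparison of the wider regions, 58.7% of all calls were higher in PEO4, and with a GC offset 48.2% were. With 250 kb on each side, 1 member (MYC) had all PEO4 libraries above all PEO1 libraries, as did 11.8% of all genes, and 2 had them below, as did 11.2%. Over gene bodies none was above, against 8.07% of genes, and 2 were below, against 7.03%. With a GC offset the body difference of ERBB2 turned from 0.09 to -0.18 and that of TERT from 0.30 to -0.19, none of which passed.

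**Figure D3:**
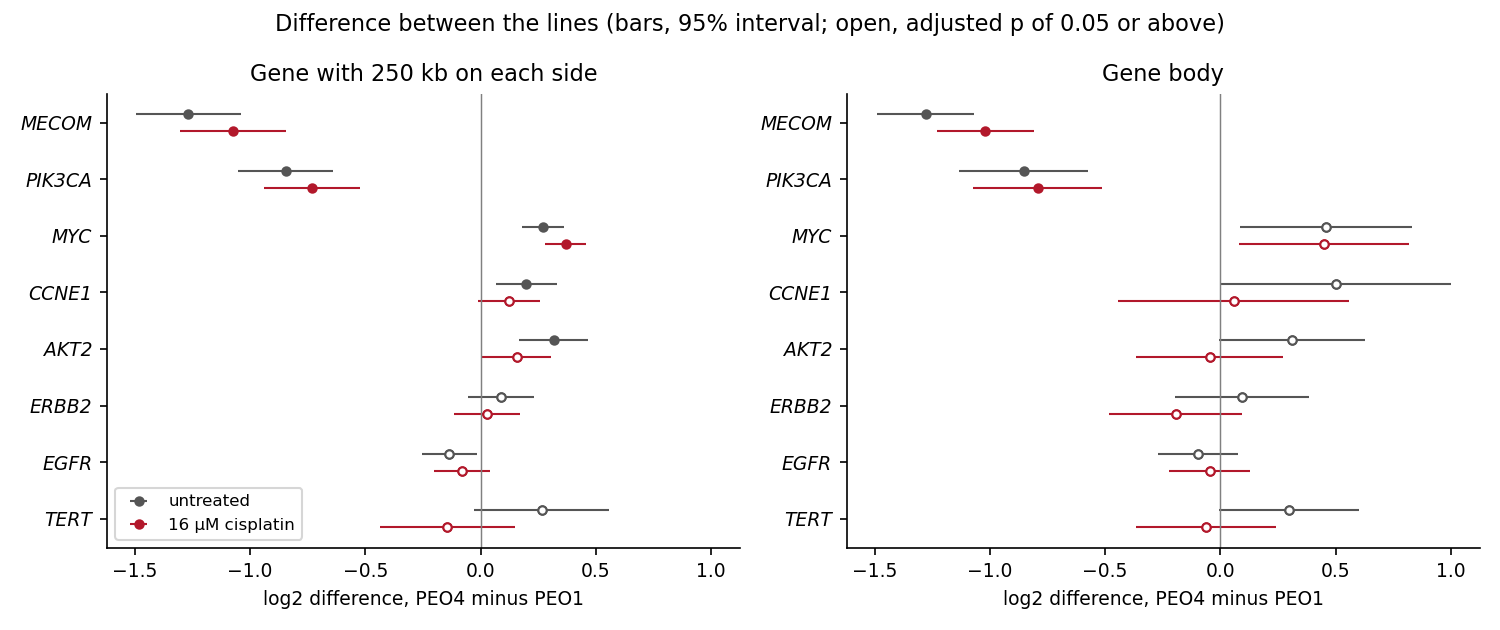
Fitted log2 difference PEO4 minus PEO1 (horizontal axis) with its 95% interval for each gene, in untreated libraries (grey) and at 16 µM cisplatin (red), with 250 kb on each side (left) and over the gene body (right). Open circles did not pass an adjusted p of 0.05. MECOM and PIK3CA lie between -1.28 and -0.73 in all 4 fits, and MYC lies between 0.27 and 0.46.

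Window by window, 7 of 8 body windows of MYC, 11 of 14 of CCNE1, 41 of 62 of AKT2 and 33 of 46 of TERT were higher in PEO4 UT, whereas EGFR (112 of 212 lower) and ERBB2 (20 of 47 lower) were mixed. Neighbouring windows share reads and libraries and are no replicates. The window counts were not corrected for base composition. Their share over all genes was not counted, here or for MECOM and PIK3CA above. With a GC offset the fitted body difference was -0.03 for AKT2 and -0.19 for TERT, and neither passed by edgeR. Those of MYC and CCNE1 kept their direction under all alternatives. The log2 ratio of a body to its own surroundings was compared between the lines. That ratio was -0.03 ± 0.073 in PEO1 UT and -0.06 ± 0.064 in PEO4 UT for MECOM, and -0.02 ± 0.058 and -0.05 ± 0.154 for PIK3CA (SD, n = 3 each). The groups overlapped for all 8 members, and a two-sided exact permutation test gave p-values of 0.3 to 1.0, where 3 libraries against 3 cannot go below 0.1.

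No change of a member with treatment passed against the spread between libraries. With 250 kb on each side, the change with 16 µM in PEO1 lay between -0.06 (MYC, SE 0.042) and 0.19 (TERT, SE 0.136). In PEO4 it lay between -0.22 (TERT) and 0.16 (MECOM, SE 0.105) at 16 µM, and between -0.11 (TERT) and 0.20 (MECOM) at 32 µM. By edgeR, 0 of 8 members passed in any of the 3 comparisons, at adjusted p-values of 0.915, 0.737 and 0.546 or more, and 0 of 8 had an unadjusted p under 0.05. The background was 0% of 20055 genes called in each of the 3, with 731, 152 and 975 genes at an unadjusted p under 0.05. Read per gene, the 95% intervals for PEO1 were -0.27 to 0.19 for MECOM, -0.26 to 0.15 for PIK3CA, -0.15 to 0.03 for MYC and -0.11 to 0.48 for TERT.

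Over gene bodies again 0 of 8 passed, where edgeR called 1 of 17236 genes in PEO1 (0.0058%) and 0% in PEO4 at either dose, and DESeq2 called 5, 0 and 0. At an unadjusted p under 0.05 there were 959, 443 and 1169 genes by edgeR. The single member under 0.05 unadjusted was MECOM in PEO4 at 16 µM, at 0.21 (SE 0.101, adjusted p = 0.982 by edgeR). The difference between the responses of the lines, which uses the same untreated libraries as each response and as the line comparison, was called for 0 of 8 members and 0% of genes, with 32 µM or 16 µM in PEO4, over bodies and over the wider regions. At an unadjusted p under 0.05 edgeR had 1409 and 1203 gene bodies and 1027 and 1292 wider regions, and DESeq2, run on bodies, called 1 and 4. For the wider regions the response difference with 32 µM ran from -0.30 (TERT, SE 0.192) to 0.24 (MECOM, SE 0.149), and MYC was at 0.01 (95% interval -0.12 to 0.13). Between 32 µM and 16 µM in PEO4, 0 of 8 members and 0% of genes passed, with 122 regions and 420 bodies at an unadjusted p under 0.05 by edgeR. MYC was 1 of them in both, at -0.09 (SE 0.042) with its surroundings and -0.37 (SE 0.180) over its body, with an adjusted p of 1.0 by edgeR in each.

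**Figure D4:**
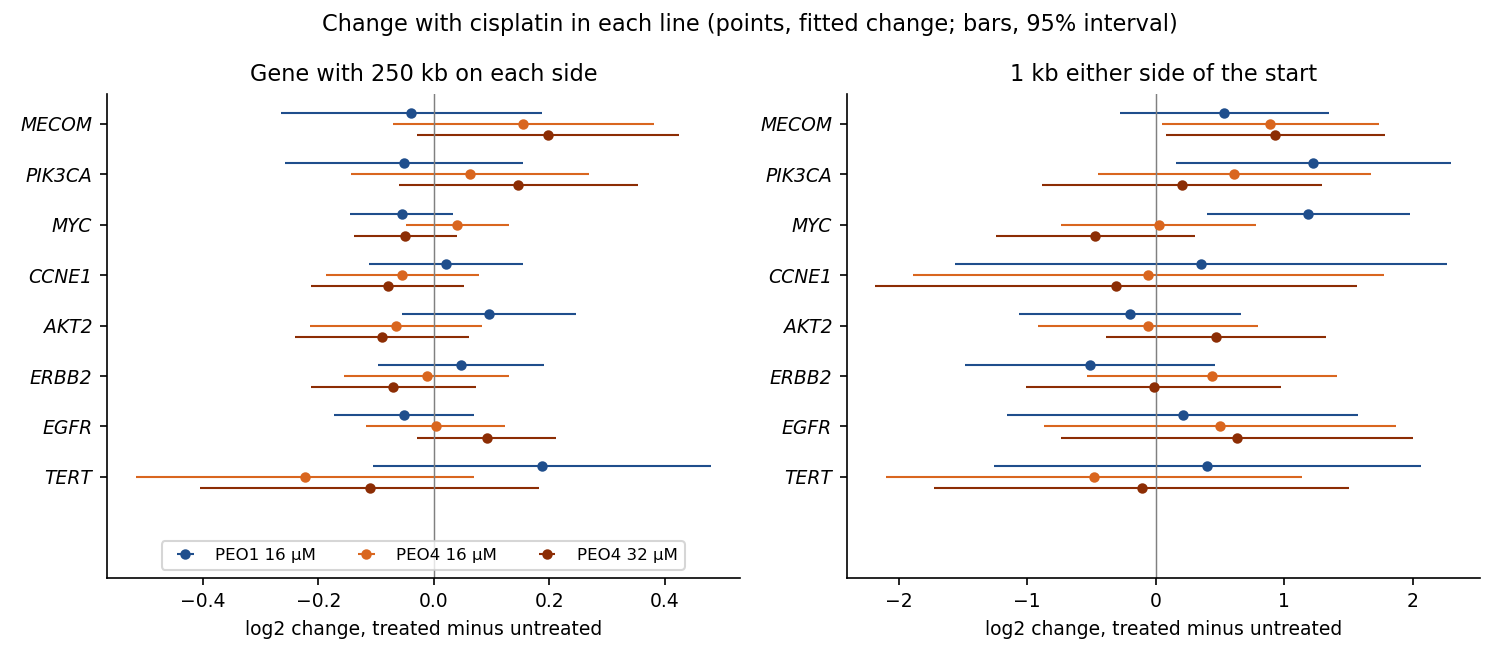
Fitted log2 change with cisplatin (horizontal axis, treated minus untreated of the same line) and its 95% interval for each gene, with 250 kb on each side (left) and in the 1 kb either side of the start (right). The intervals on the right are several times wider, and MYC in PEO1 sits at 1.19 with an adjusted p of 0.554.

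Base composition moved with these changes in some libraries. In PEO1 at 16 µM, library 1 had a slope of 0.40 (log2 per 10 points of GC) over autosomal bins relative to PEO1 UT, and across the 8 members its change followed their GC content with r = 0.98 (n = 8 genes, a description), from -0.11 for MECOM at 37.8% GC to 0.56 for TERT. Library 1 of PEO4 at 16 µM ran the other way, with a slope of -0.46, r = -0.98 and a TERT value of -0.67. Libraries 2 and 3 of PEO4 at 32 µM had slopes of -0.43 and -0.34, r = -0.93 and -0.87, and TERT values of -0.42 and -0.28. In the remaining 5 treated libraries the slope lay between -0.05 and 0.03 and every member stayed between -0.16 and 0.08 of its untreated mean. The part of base composition in the member changes was not tested.

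**Figure D5:**
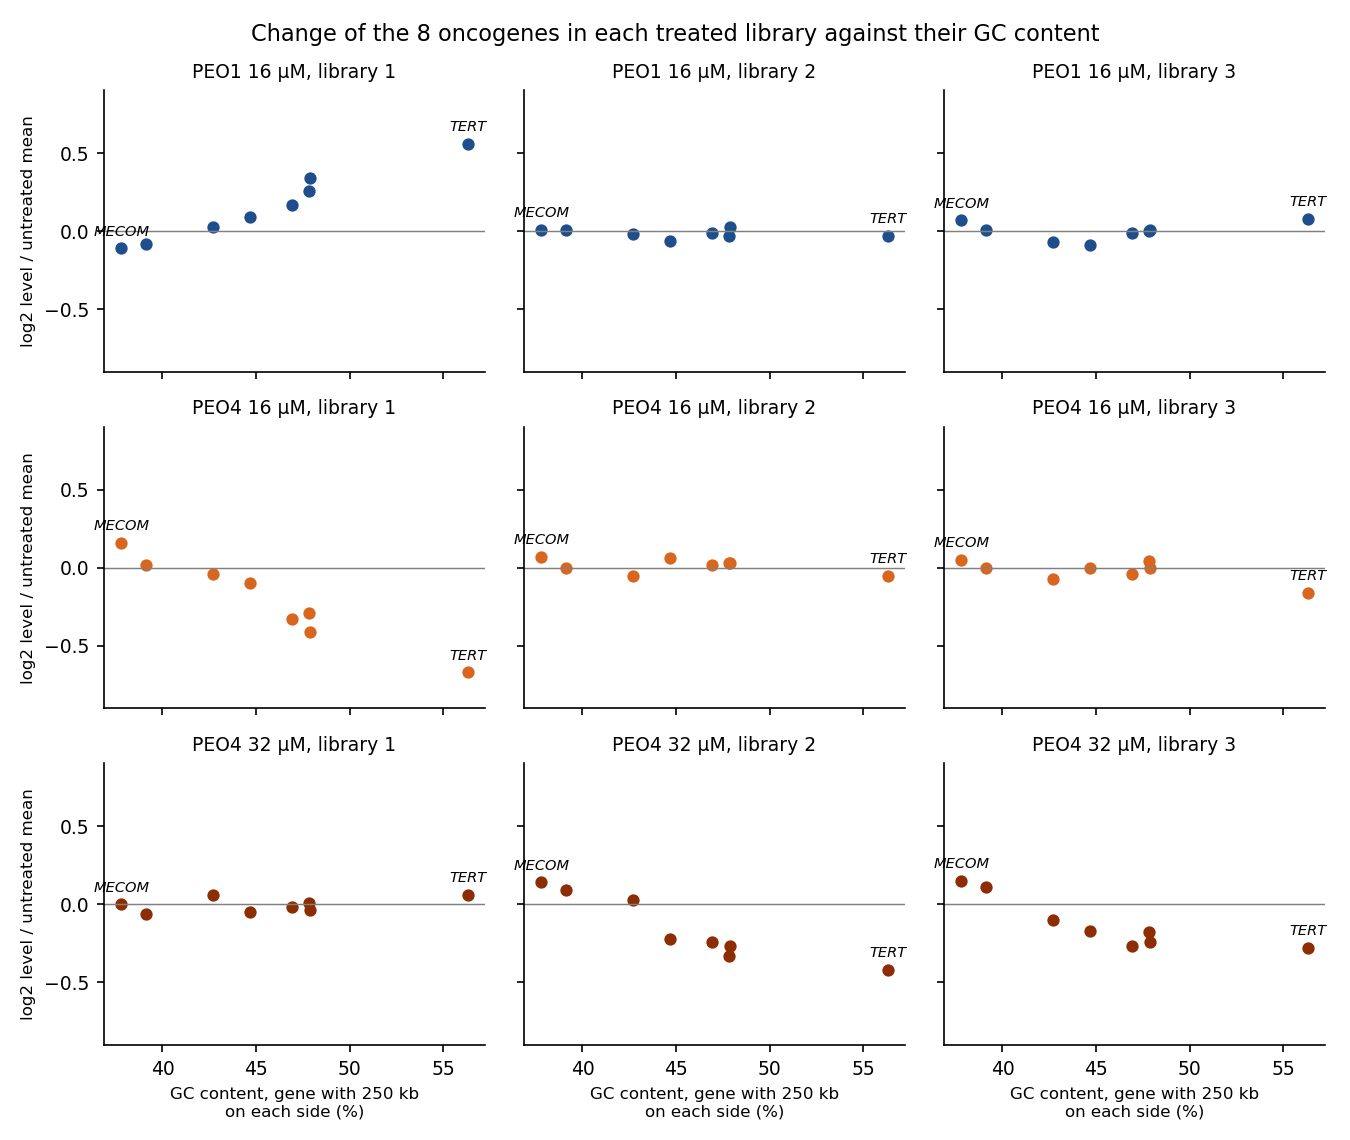
Log2 level of each of the 8 genes in a treated library relative to the untreated mean of its line (vertical axis) against the GC content of the gene with 250 kb on each side (horizontal axis), 1 panel for each of the 9 treated libraries. TERT, the most GC-rich, runs from -0.67 in PEO4 at 16 µM library 1 to 0.56 in PEO1 at 16 µM library 1.

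Around the start sites, 1 kb either side of the start of the Ensembl canonical transcript, no member passed. For ERBB2 that start lies downstream of its outermost annotated start. The untreated lines did not overlap at the starts of MYC, MECOM and ERBB2 and overlapped at the other 5. At ERBB2 the margin was narrow, with 30 to 44 scaled reads in PEO1 UT and 25 to 29 in PEO4 UT. The share of all starts with separate groups was not counted, so no reading is made of this. The mean over libraries was 10.1 reads for CCNE1 and 53.7 for MYC, the lowest and highest of the 8. After the same scaling, the MYC start held 23, 18 and 31 reads in PEO1 UT and 89, 61 and 65 in PEO1 at 16 µM. It held 64, 51 and 58 in PEO4 UT, 37, 96 and 36 in PEO4 at 16 µM, and 46, 38 and 39 in PEO4 at 32 µM. The 2 PEO1 groups did not overlap, and the change of 1.19 (SE 0.393) had an unadjusted p of 0.00426 and did not pass (adjusted p = 0.554 by edgeR). Set against the 32 µM response of PEO4, the difference was -1.66 (SE 0.548, adjusted p = 0.994 by edgeR).

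The PIK3CA start held 19, 22 and 9 reads in PEO1 UT and 96, 40 and 29 at 16 µM, a change of 1.23 (SE 0.530, adjusted p = 0.685 by edgeR), and library 1 was far above its replicates. The MECOM start held 34, 54 and 41 reads in PEO1 UT and 145, 43 and 67 in PEO1 at 16 µM, and again library 1 was the highest. It held 26, 22 and 23 in PEO4 UT, all below PEO1 UT (-1.19, SE 0.420, unadjusted p = 0.00696, adjusted p = 0.223 by edgeR). It held 44, 54 and 26 in PEO4 at 16 µM and 45, 60 and 29 at 32 µM. Of the 8 members only MECOM was below 0.05 before adjustment in each PEO4 response at starts, with changes of 0.89 (SE 0.418) and 0.93 (SE 0.421) and adjusted p = 1.0 in both by edgeR. CCNE1, whose upstream sequence is shown above, held 3, 4 and 12 reads in PEO1 UT and 17, 6 and 8 at 16 µM, and its interval ran from -1.56 to 2.27, so no difference was detectable at this depth. The ERBB2 start held 24 to 44 reads in the 6 PEO1 libraries and 12 to 40 in the 9 PEO4 libraries, and that of AKT2 23 to 58 and 26 to 76. The EGFR start held 6 to 36 and 7 to 51, and that of TERT 3 to 37 and 5 to 25, and all 4 overlapped between the lines. Over the 8 starts together the level was 2.24 in PEO1 at 16 µM library 1 and 0.74 to 1.36 in the other 14 libraries. Over all 20090 protein-coding starts that library was also the highest, at 1.28 against 0.70 to 1.12. Of 18123 starts tested, 0.497% were called between the untreated lines, 0.0662% between the lines at 16 µM, and 0% in the responses and response differences, with 0 of 8 members in each. At an unadjusted p under 0.05 there were 1254, 441 and 613 starts in the 3 responses and 865 in the response difference with 32 µM, where DESeq2 called 1. The median coefficient of variation between replicates, as estimated by edgeR without counting noise, was 45.9% at starts. It was 13.9% over bodies and 7.02% over the wider regions. Counting noise comes on top and is largest where reads are few.

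The wider pathways were described from 39 further genes of the PI3K, RAS, cyclin, MYC, ERBB and telomerase systems, with PRDM16 as the relative of MECOM. With 250 kb on each side, 9 were higher and 8 lower in PEO4 UT, with a median log2 difference of 0.02 over the 39, where 20.1% of all genes were higher and 14.2% lower. CCND3, a D-type cyclin that opens the G1 phase, had the highest value at 1.02 (SE 0.064), followed by RPTOR, the scaffold of mTOR complex 1, at 0.91 (SE 0.121), and PRDM16, a zinc-finger factor, at 0.84 (SE 0.160). Among the genes that were lower were NOP10 at -0.66 (SE 0.066) and DKC1 at -0.66 (SE 0.071), which are both protein components of the telomerase particle. At 16 µM, where 14.6% of all genes were higher and 10.1% lower, 4 were higher and 7 lower, and CCND3 (0.98), RPTOR (0.60), NOP10 (-0.59) and DKC1 (-0.56) passed again, whereas PRDM16 did not (0.25, adjusted p = 0.44 by edgeR).

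By system, and against the same 20.1% and 14.2% of all genes, 5 of 12 genes of the PI3K, AKT and mTOR chain were higher and 2 lower in PEO4 UT. Of 9 cyclins, cyclin-dependent kinases and E2F factors, 3 were higher and 1 lower. Of 4 RAS and RAF genes 1 was lower, of 5 telomerase genes 3 were lower, of 6 genes of the MYC network 1 was lower, and neither of the ERBB3 and ERBB4 receptors passed. Among the 35 tested neighbours of the members, 9 were higher and 7 lower, again beside 20.1% and 14.2% of all genes, with PAK4, a kinase gene close to AKT2, at the top (0.33, SE 0.107) and MYNN at the bottom. In the 3 responses of the wider regions, none of the 39 pathway genes and none of the 35 neighbours passed.

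In PEO1 UT, the order of levels relative to the autosomal mean began with MYC (2.35 ± 0.080) and MECOM (2.24 ± 0.092), whose libraries overlapped, and PIK3CA followed at 1.72 ± 0.10 without overlap (SD, n = 3 each). ERBB2 (1.18) and EGFR (1.145) came next and overlapped each other, and every EGFR library was above those of CCNE1 (0.991), which overlapped TERT (0.971) and AKT2 (0.965). In PEO4 UT, MYC stood alone at 2.96 ± 0.059 (SD, n = 3), ERBB2, AKT2, TERT and CCNE1 lay between 1.31 and 1.19 with overlap between neighbours in the order, and EGFR (1.09), PIK3CA (1.00) and MECOM (0.974) followed, each without overlap with the one above it. With the GC-matched level TERT was last in PEO4 UT (0.892), and MECOM (1.04), CCNE1 (1.05), PIK3CA (1.05), EGFR (1.05) and AKT2 (1.06) lay close together. Over the 15 libraries, the gene on another chromosome whose level ran most like that of MECOM was AREGB on chromosome 4 (r = 0.999), a near-identical copy of AREG whose reads are uncertain, and for PIK3CA it was MACROD2 on chromosome 20 (r = 0.997). For MYC it was C1orf94 (r = 0.989), for CCNE1 DRAXIN (r = 0.984) and for AKT2 AHDC1 (r = 0.989), all on chromosome 1. ERBB2 ran most like PRKAR2A on chromosome 3 (r = 0.989), TERT like NAP1L4 on chromosome 11 (r = 0.991) and EGFR like NEK3 on chromosome 13 (r = 0.878). These are descriptions over libraries that share a line and a dependence on base composition, and each was picked as the highest among all genes.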

How the data were processed

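DNA of PEO1 and PEO4 cells was analysed by Pt-exo-seq in 15 libraries, single-end. The authors trimmed the reads, aligned them to hg19 with Bowtie2, removed duplicates with Picard and regions of the ENCODE blacklist, and deposited raw counts per 1 kb window at steps of 900 bp, so neighbouring windows share 100 bp (versions not given in the sources used here). The restriction of windows by chromatin accessibility that the study used was not applied. Here, windows (3373681 of 3439652, on chromosomes 1 to 22 and X) were assigned by midpoint to 20090 protein-coding genes of GENCODE v44 lifted to GRCh37, whose chromosome lengths matched the windows. GG and CC letters and GC content were read from that genome.

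Summed counts were fitted with edgeR 4.0.16 (quasi-likelihood, TMM scaling, 1 coefficient for each of the 5 groups, all 15 libraries) with Benjamini-Hochberg adjustment over all genes, calls at 0.05, and a mean of at least 50 reads per library (10 at start sites). The fit was tested on simulated data that had less spread between libraries than was measured at starts and over gene bodies. That test therefore does not show how the fit performs there. Start sites took the windows with a midpoint within 1 kb of the start of the Ensembl canonical transcript. The sequences shown were instead placed by the outermost annotated start. Alternatives were DESeq2 1.42.0, limma 3.58.1, other scalings, filters and widths, a GC offset, a replicate block and leaving out each library. Stretches of even level were found by least-squares segmentation of 100 kb bins of at least 50 covered windows, at least 5 bins long, joining neighbours closer than 0.12, a choice made after seeing the data.

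The members and lists were chosen with earlier results of these data known. The genes named are the 8 members, the 3 highest and 3 lowest called pathway genes, the highest and lowest called neighbour, and for each member the gene on another chromosome with the highest r, except for 1 gene that is not reported here. The other neighbours of 3q26, ASAP1 and UQCRFS1 were named after their values were seen. Intervals cover the spread between libraries only.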

Additional observations from a re-analysis of the deposited data

How the results depend on the processing

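The differences of MECOM, PIK3CA and MYC between the untreated lines, with 250 kb on each side, kept their direction and passed under all 15 alternatives tried for each. They ranged from -1.30 to -1.08 for MECOM, -0.91 to -0.68 for PIK3CA and 0.22 to 0.35 for MYC. The TERT difference turned to -0.138 with a GC offset and with a replicate block plus GC offset, and the cause was not tested. The counts of genes called moved most in the following cases. Gene bodies that responded to 16 µM in PEO1 numbered 1, and 0 with total-count scaling, no filter, a GC offset, a replicate block, fewer groups fitted, any overlap of windows, and 0 to 1 without 1 library, but 5 by DESeq2. For the difference of responses over bodies, 0 became 1 with 32 µM by DESeq2, and with 16 µM 4 by DESeq2, 1 with the block plus GC offset and 1 by limma on log2 ratios. At starts, 0 became 1 by DESeq2, and 0 to 1 without 1 library (1 without library 3 of PEO1 at 16 µM). With 250 kb on each side, the 6886 genes that differed between the untreated lines became 11670 when only those groups were fitted, and the 4947 at 16 µM became 7655 with a GC offset and 7581 with the block as well, and the causes of these changes in count were not tested.

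To look for pairing, the log2 level of each gene with 250 kb on each side was taken as its deviation from the group mean. Between libraries of different groups, these deviations correlated by -0.149 on average for the same number (12 of 30 pairs over 0.1). For different numbers they correlated by 0.057 (32 of 60 pairs over 0.1). Same-numbered pairs ran from -0.919 to 0.896, so these means cannot show whether replicate numbers pair the libraries. With the replicate block, 5681 wider regions and 3554 bodies differed between the untreated lines, and it changed no call of a member. Starts are limited by 10.1 to 53.7 reads per library, and other measurements of the DNA content of the lines were not analysed here.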
